A study of Mus musculus with 8 samples.

Results

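The 10 genes described here build the autophagosome, the membrane sac that encloses cytoplasm for digestion in the lysosome. They are Wipi2, its relative Wipi1, and the 8 genes Ulk1, Rb1cc1, Becn1, Atg9a, Atg5, Atg7, Atg16l1 and Map1lc3b. They were found in the authors' deposited table as rows with a single gene symbol equal to one of these names. Each of the 10 had 1 such row among 34472 gene-level probe sets, of which 29971 carried 1 symbol, and each row was matched to its gene by accession. Wipi2 was picked because its signal was lower in treated animals, so its difference between the groups is given below as a description with no test, and the other 9 were added for their role.

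Oocyte RNA of female ICR mice was measured on Affymetrix MoGene 2.1 ST arrays. All animals were 8 weeks old and on a diet without phyto-oestrogens. The control group (4 arrays) is labelled as having no treatment. The treated group (4 arrays) received bisphenol S (BPS), an analogue of bisphenol A, by oral gavage for 7 days at a daily dose of 0.1 ng per g of body weight, in glycerol with DMSO. The protocols used here name no vehicle gavage for the controls, so BPS and its vehicle cannot be told apart. The protocols give 4 animals per group for this experiment but do not state that each array held the RNA of 1 animal, so p-values measure the spread between these arrays. The tissue is labelled as oocytes and the extraction as oocyte RNA, while the treatment protocol speaks of collected ovaries. A lower signal in bulk RNA can come from fewer cells of a type or from less RNA per cell, and these cannot be told apart.

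In autophagy the ULK1 kinase complex starts the process, and a lipid kinase complex around BECN1 then makes phosphatidylinositol 3-phosphate (PI3P) on the nascent membrane. WIPI2 binds PI3P and recruits ATG16L1, which brings the ATG12-ATG5 conjugate. That complex, with the enzymes ATG7 and ATG3, attaches LC3 to the membrane, which then grows and closes. In mice autophagy is switched on in the egg soon after fertilisation, and embryos from oocytes without ATG5 fail before implantation when sperm bring no working copy either.

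Stretches before annotated starts are shown for context, for the 3 genes whose signals differed most and for Atg5. For Wipi2, Atg5 and Atg7 the start site used lay inside the gene. The hexamer CACGTG was searched, the core of the element bound by TFEB, a transcription factor of lysosome and autophagy genes. Sequences are from RefSeq on GRCm38.p6, and 7 of the 10 genes had a promoter entry. The hexamer is its own reverse complement, so 1 search covers both strands. It was found in the 250 bases before the annotated start in 2 of the 7 genes, Atg5 and Atg7, and in 6.02% of all 32851 such windows. For these 2 genes the stretch around the match is printed with the hexamer in capitals, on the plus strand of chromosome 10 (44268313 to 44268338) and of chromosome 6 (114670952 to 114670981). The match lay 8 bases before the start site in Atg5 and 126 bases before it in Atg7. The Atg5 start site lay 17 bases inside the annotated gene, so the Atg5 match lay after the first annotated base of the gene. For Wipi2 (chromosome 5, plus strand, 142629334 to 142629532) and Map1lc3b (chromosome 8, plus strand, 121590188 to 121590437) the bases before the first annotated base of the gene are printed, and these hold no match. A match is a description of letters and not evidence of binding.
Atg5: cggagcgcttgcCACGTGgtcttggt
Atg7: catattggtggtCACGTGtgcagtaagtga
Wipi2: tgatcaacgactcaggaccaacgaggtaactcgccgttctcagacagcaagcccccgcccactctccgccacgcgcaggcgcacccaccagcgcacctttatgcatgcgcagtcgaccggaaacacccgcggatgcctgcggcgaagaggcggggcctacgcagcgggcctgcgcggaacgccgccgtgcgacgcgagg
Map1lc3b: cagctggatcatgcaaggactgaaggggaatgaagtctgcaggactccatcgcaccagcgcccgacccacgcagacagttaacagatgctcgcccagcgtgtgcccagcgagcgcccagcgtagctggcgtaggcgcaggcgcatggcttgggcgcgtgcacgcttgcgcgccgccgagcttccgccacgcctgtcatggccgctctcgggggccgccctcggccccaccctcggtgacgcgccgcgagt
The Wipi2 and Map1lc3b windows of 250 bases were each 69.6% G and C, against a median of 52.4% over all windows, while that of Atg7 was 43.2%. The Atg7 start site lay 27969 bases inside the annotated gene, at the start of a shorter transcript. The bases before the first annotated base of Atg7 were thus not searched.

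Values below are RMA signals on the log2 scale. A difference is the BPS mean less the control mean, with its SE, and a group mean has the SD of its 4 arrays. The arrays are called by group and replicate number in their titles. The background level was 4.54, which 95% of 1570 probe sets for Y-linked genes and for olfactory and vomeronasal receptors did not exceed in mean signal. Oocyte markers lay above it in 12 of 12 genes, with the egg coat gene Zp3 at 10.95 ± 0.07 (SD, n = 4) and the secreted factor gene Gdf9 at 9.86 ± 0.08 (SD, n = 4) in control arrays. Granulosa and cumulus cell markers lay above it in 2 of 10 genes, theca and stroma markers in 0 of 8, blood and immune markers in 0 of 6 and endothelial markers in 1 of 4. Amh and Fshr of the granulosa list were below it in both groups. The mean of the granulosa and cumulus list ran from 4.35 to 4.48 in control and from 4.43 to 4.65 in BPS arrays. Its 2 genes above background were Nr5a2 and Inha. In control and BPS arrays Nr5a2 stood at 6.31 ± 0.14 and 6.41 ± 0.24, and Inha at 4.99 ± 0.38 and 5.55 ± 0.69 (SD, n = 4). The part of these cells in the results was not tested. Array names in the authors' deposited table end in a number for 4 arrays and in a letter for the other 4, with 2 of each in both groups. Replicates 1 and 2 of each group equal the number-named columns value for value and replicates 3 and 4 the letter-named ones. The sources used here do not say what the names stand for. The median difference was 0.12 over the 10138 probe sets above background and 0.00 after quantile normalization, so small positive differences are to be read against that shift.

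**Figure D1:**
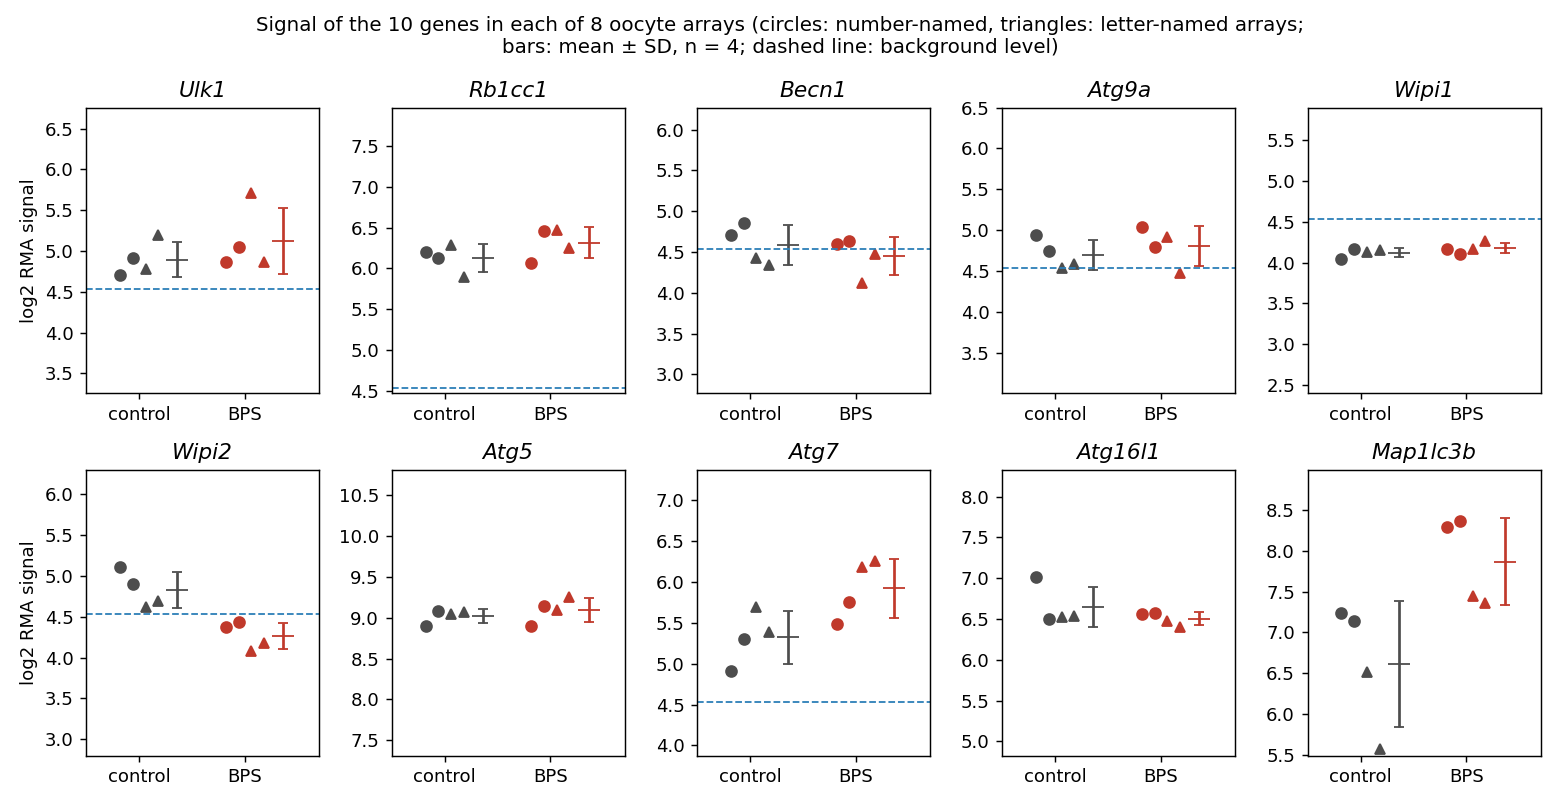
Log2 RMA signal (vertical axes, each spanning the same number of log2 units) of the 10 genes in the 4 control and 4 BPS arrays, with circles for number-named and triangles for letter-named arrays, bars for mean ± SD (n = 4) and a dashed line at the background level of 4.54. The Wipi2 values of BPS arrays lie below the line and those of control arrays above it, and the Map1lc3b values of the groups do not overlap.

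Wipi2 signals were 5.11, 4.90, 4.62 and 4.69 in control replicates 1 to 4 and 4.37, 4.43, 4.08 and 4.18 in BPS replicates 1 to 4. The highest BPS value was below the lowest control value, and the groups did not overlap. Wipi2 (chromosome 5, 142629533 to 142669672 on GRCm38.p6) codes for the PI3P-binding β-propeller that links the lipid signal to LC3 attachment. The means were 4.83 ± 0.22 and 4.27 ± 0.16 (SD, n = 4), a difference of -0.57 ± 0.12 (SE). All 4 control arrays lay above background and none of the 4 BPS arrays did, so the BPS level is known only as not above background. The control mean was 1.23-fold above the background level, a description of these arrays that carries no error and is no bound. The size of the measured difference was exceeded by 2.15% of all probe sets, a rank that is no support, since Wipi2 was picked on this difference. Within the number-named arrays the difference was -0.61 and within the letter-named arrays -0.53 (limma interaction 0.08 ± 0.13 SE). Leaving out any 1 array gave differences between -0.64 and -0.47.

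Map1lc3b signals were 7.24, 7.14, 6.51 and 5.57 in the control and 8.29, 8.36, 7.45 and 7.36 in the BPS arrays. Every BPS value was above every control value, and within each group the letter-named arrays were lower than the number-named ones. Map1lc3b (chromosome 8, 121590438 to 121598760) codes for LC3B, the ubiquitin-like protein that is attached to the autophagosome membrane and serves as its usual marker. The means were 6.62 ± 0.77 and 7.87 ± 0.53 (SD, n = 4), a 2.38-fold higher signal in BPS (difference 1.25 ± 0.40 SE, 95% interval 0.33 to 2.17). Without a block it did not pass the threshold of 0.05 (limma adjusted p = 0.389 over all probe sets). It passed as higher with the replicate number as a block (limma adjusted p = 0.0416) and with number or letter name, the array series, as a block (limma adjusted p = 0.0191, and 0.0339 after quantile normalization as well). A larger difference in size was found in 0.0435% of all probe sets. That rank does not weigh the spread between arrays. It is no support, since the genes were chosen with earlier results of these data known. The Map1lc3b difference was 1.14 within the number-named and 1.37 within the letter-named arrays, and 1.13 after quantile normalization of all arrays. Control replicate 4 had the lowest value, and without it the difference was 0.90. Whether the probe set separates Map1lc3b from related copies was not analysed here.

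Atg7 signals were 4.91, 5.30, 5.70 and 5.39 in the control and 5.49, 5.76, 6.18 and 6.26 in the BPS arrays. The groups overlapped, since control replicate 3 was above BPS replicate 1, and within each series of names every BPS value was above both control values. Atg7 (chromosome 6, 114643127 to 114860604) codes for the E1-like enzyme that activates both ATG12 and LC3. The means were 5.33 ± 0.33 and 5.92 ± 0.36 (SD, n = 4), a 1.51-fold higher signal in BPS (difference 0.60 ± 0.21 SE, 95% interval 0.11 to 1.08). It did not pass without a block (limma adjusted p = 0.403) and passed as higher with the replicate block (limma adjusted p = 0.0473) and with the array-series block (limma adjusted p = 0.0391). With the array-series block after quantile normalization it did not pass (limma adjusted p = 0.0897). The difference was 0.52 within the number-named and 0.68 within the letter-named arrays, and 0.42 after quantile normalization of all arrays.

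With the array-series block, leaving out arrays removed calls. Map1lc3b kept an adjusted p under 0.05 in 4 of 8 such fits, with values of 0.016 to 0.062. Atg7 kept it in 2 of 8, with values of 0.0234 to 0.114. Without control replicate 1 or BPS replicate 2, 3 or 4, neither of the genes passed in these fits.

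**Figure D2:**
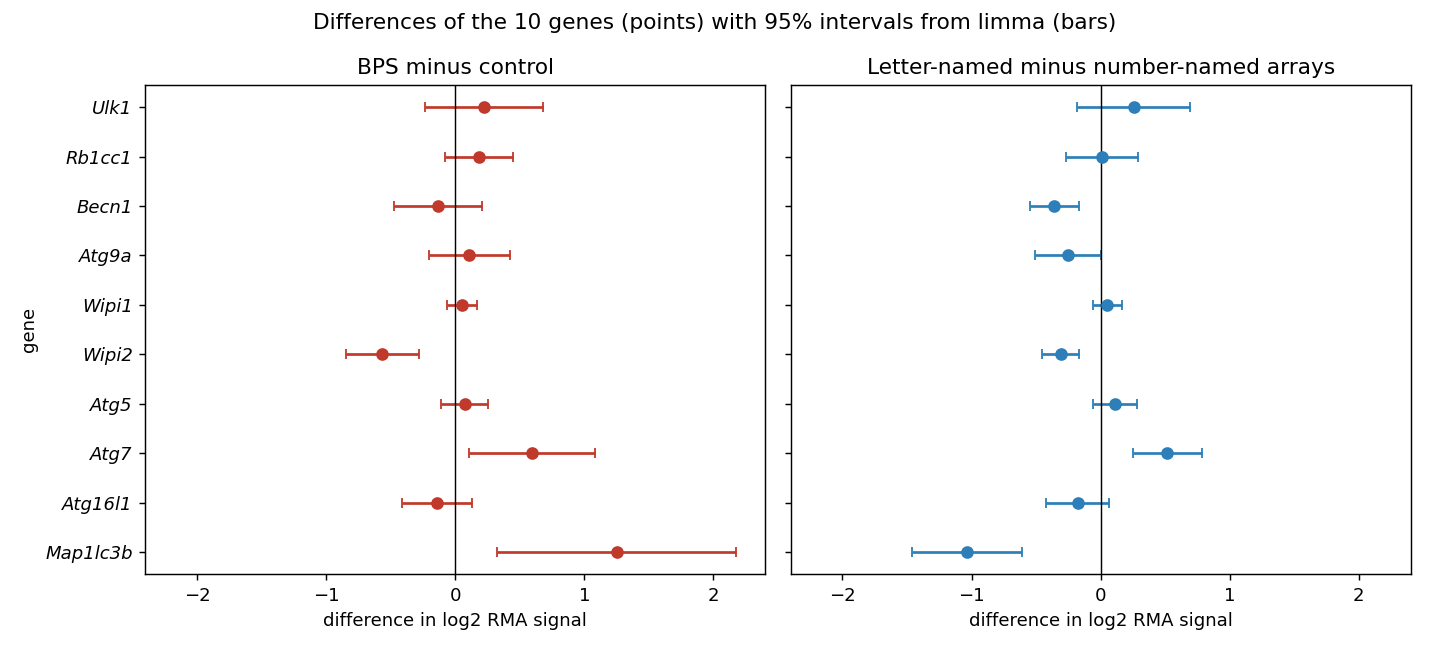
Differences in log2 RMA signal (horizontal axes) of the 10 genes, BPS minus control without a block on the left and letter-named minus number-named arrays with group as a block on the right, with points for estimates and bars for 95% intervals from limma over 8 arrays. Map1lc3b is at 1.25 on the left and at -1.04 on the right. The left interval of Wipi2 describes the value it was picked on.

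The kinase complex that starts autophagy showed no difference past the threshold. Ulk1 (chromosome 5, 110784489 to 110810120), its kinase, had signals of 4.70, 4.91, 4.78 and 5.19 in control and 4.86, 5.05, 5.71 and 4.86 in BPS arrays, with a difference of 0.23 ± 0.20 (SE) that was 0.10 after quantile normalization. BPS replicate 3 was the high value, and the other 3 BPS arrays lay within the control range. Rb1cc1 (chromosome 1, 6214634 to 6276375), the scaffold FIP200, stood at 6.13 ± 0.17 in control and 6.31 ± 0.19 in BPS arrays (SD, n = 4), a difference of 0.19 that was 0.01 after quantile normalization.

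Becn1 (chromosome 11, 101288258 to 101302286), the regulatory subunit of the PI3P-making kinase, had signals of 4.71, 4.86, 4.43 and 4.34 in control and 4.60, 4.63, 4.12 and 4.47 in BPS arrays. In each group 2 of 4 arrays, the number-named ones, lay above background. Its difference was -0.13 ± 0.15 (SE, 95% interval -0.47 to 0.21). Atg9a (chromosome 1, 75180861 to 75192010), the lipid scramblase carried by ATG9 vesicles, ran from 4.53 to 4.94 in control and from 4.47 to 5.04 in BPS arrays, with 3 of 4 arrays of each group above background and a difference of 0.11 ± 0.14 (SE) that was 0.02 after quantile normalization. Wipi1 (chromosome 11, 109573521 to 109611389), the close relative of Wipi2, was below background on all 8 arrays, at 4.12 ± 0.06 and 4.18 ± 0.06 (SD, n = 4), so these arrays gave no measured level for it in either group.

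Atg5 and Atg16l1 form the complex that WIPI2 recruits. Atg5 (chromosome 10, 44268322 to 44364299) had a signal of 9.03 ± 0.08 in control and 9.10 ± 0.15 in BPS arrays (SD, n = 4), and its difference of 0.07 had a 95% interval of -0.11 to 0.26. Atg16l1 (chromosome 1, 87756007 to 87792428) had signals of 7.02, 6.50, 6.53 and 6.54 in control and 6.56, 6.58, 6.48 and 6.40 in BPS arrays. Control replicate 1 stood apart, the other 3 controls lay within the BPS range, and the difference of -0.14 became -0.02 without that array and -0.29 after quantile normalization of all arrays.

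Counts over the BPS contrast are given for the 9 genes other than Wipi2, which was picked on it. Without a block 0 of the 9 passed in limma, against 0.00870% of all probe sets. Of the 9, 2 had an unadjusted p under 0.05 in limma, against 11.1% of all probe sets and 20.2% of those above background. The adjusted p of the 7 genes other than Wipi2, Map1lc3b and Atg7 lay between 0.556 and 0.777 in limma. An interval that includes 0 does not show that a gene was unchanged: for Ulk1 the 95% interval ran from 0.851-fold to 1.61-fold. With the replicate block Map1lc3b and Atg7 passed, 2 of 9 and both higher, against 1.59% of all probe sets that passed as higher, 1.99% that passed in either direction and 5.27% in either direction among those above background. With the array-series block the same 2 passed as higher, against 2.78% higher and 3.47% in either direction, and after quantile normalization as well Map1lc3b did, against 1.77% in either direction. The BPS and control values did not overlap in 1 of the 9, Map1lc3b, which was higher, against 4.13% of all probe sets that did not overlap and were higher, 5.80% in either direction and 8.38% in either direction among those above background. The median difference of the 9 was 0.11 and 7 were positive, against a median of 0.12 and 7166 positive among the 10138 probe sets above background. The median of the 9 was 0.04 after quantile normalization.

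Letter-named and number-named arrays were also compared, a contrast that the choice of genes did not use. With group as a block, 4 of 10 differed between letter-named and number-named arrays, against 5.51% of all probe sets and 14.0% of those above background. Of these, 1 was higher in letter-named arrays, against 4.56% of all probe sets, and 3 were lower, against 0.949% of all probe sets. Shares by direction were not counted among probe sets above background, where 8 of the 10 genes lay. Map1lc3b was lower in letter-named arrays by -1.04 ± 0.18 (SE, limma adjusted p = 0.0241), Becn1 by -0.36 ± 0.08 (limma adjusted p = 0.0496) and Wipi2 by -0.31 ± 0.06 (limma adjusted p = 0.0313). Atg7 was higher in them by 0.52 ± 0.11 (limma adjusted p = 0.0457). Wipi2 and Atg7 thus differed in the same direction in letter-named arrays as in BPS arrays, and Map1lc3b in the opposite direction. After quantile normalization 2 of 10 passed, against 2.84% of all probe sets, namely Map1lc3b and Becn1 (limma adjusted p = 0.0241 and 0.043), and Wipi2 and Atg7 did not (limma adjusted p = 0.0664 and 0.15). Fewer genes passed in each fit without 1 array. In these fits 0 of 10 passed without control replicate 1 or BPS replicate 1, 2 or 3. There was 1 without control replicate 3 or BPS replicate 4, and there were 2 without control replicate 2 or 4. The differences of the 4 genes kept their direction, and that of Map1lc3b ran from -1.2 to -0.824. Whether calls were lost through the array left out or through the smaller number of arrays was not tested. Whether the BPS difference itself differed between the series was tested by an interaction, which passed for 0 of 10 genes and 0 of all probe sets, with 0 of the 10 at an unadjusted p under 0.05 in limma.

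The rest of the pathway was read from 12 role lists that hold 69 further genes, of which 68 had a single-symbol probe set and 48 lay above background. None passed without a block in limma, in either direction, with 13 at an unadjusted p under 0.05, against 11.1% of all probe sets and 20.2% of those above background. With the replicate block 1 passed as higher, against 1.59% of all probe sets, and 0 as lower. With the array-series block 2 passed as higher, against 2.78%, and 0 as lower, so both counts were near the share over all probe sets. The median difference of the 68 was 0.10, with 50 positive, 17 negative and 1 at zero, and it was -0.02 after quantile normalization. Both medians were close to those of all probe sets above background. The BPS and control values did not overlap in 7 of the 68 as higher and in 1 as lower. Over all probe sets 5.80% did not overlap in either direction, and 8.38% of those above background. The genes were Atg13, Nrbf2, Pink1, Vps11, Tfeb, Tfec and Mcoln1 as higher and Uvrag as lower.

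**Figure D3:**
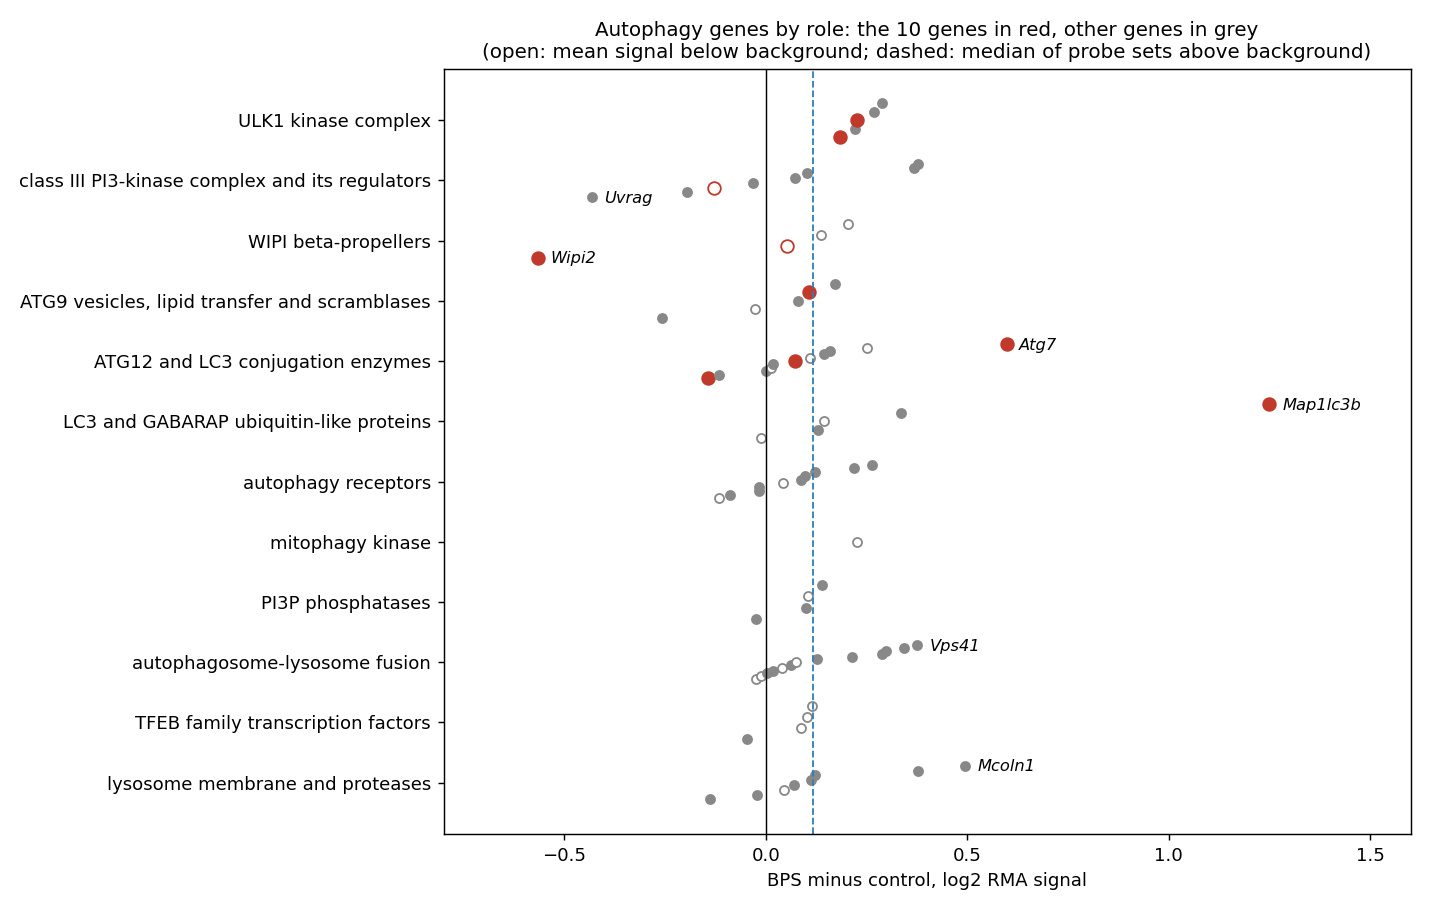
BPS minus control in log2 RMA signal (horizontal axis) of autophagy genes by role (rows), with the 10 genes in red and the other 68 in grey, open symbols for a mean signal below background and a dashed line at 0.12, the median of probe sets above background. Map1lc3b at 1.25 and Atg7 at 0.60 lie to the right of the grey points and Wipi2 at -0.57 to their left.

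Among the other starters of autophagy 3 of 3 differences were positive, as were 7166 of the 10138 probe sets above background, and the median of the 3 was 0.27 and fell to 0.10 after quantile normalization. Atg13, the adaptor of the ULK1 complex, stood at 4.64 ± 0.10 and 4.93 ± 0.16 (SD, n = 4), with no overlap. It differed by 0.29 and by 0.20 after quantile normalization. Ulk2, a kinase related to ULK1, differed by 0.22 and by 0.10 after quantile normalization. Of the 7 other genes of the lipid kinase complex, Nrbf2, a subunit of the autophagy-specific complex, differed by 0.38 ± 0.11 (SE) from 5.61 ± 0.10 to 5.99 ± 0.23 (SD, n = 4), and by 0.20 after quantile normalization. Uvrag, a subunit of the endosomal form of that complex, went the other way, from 6.07 ± 0.29 to 5.63 ± 0.15 (SD, n = 4) with no overlap. The Uvrag difference was -0.43 ± 0.14 (SE), and -0.605 after quantile normalization. The remaining WIPI-family genes Wdr45 and Wdr45b both lay under the background level and had differences of 0.14 and 0.21. None of these passed in limma, with or without a block.

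None of the other lipid supply and conjugation genes passed in limma, with or without a block. Atg2a, a lipid transfer protein, differed by 0.17 and by -0.025 after quantile normalization, and Tmem41b, a scramblase, by -0.26 and by -0.43 after it. Of the 8 other conjugation enzyme genes, Atg4c, an LC3-processing protease gene below background in mean signal, differed by 0.25 and Atg16l2, also below it, by 0.11. The relatives of LC3B had smaller differences, of 0.34 ± 0.21 (SE) for Gabarap, which was 0.18 after quantile normalization, 0.15 for Gabarapl1, which was below background in mean signal, and 0.13 for Gabarapl2, which was -0.06 after it. Map1lc3a was below background in both groups. Whether Map1lc3b differed from them in its response was not tested.

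The further genes that passed with a block were Vps41 of the fusion list and Mcoln1 of the lysosome list. Vps41, a tether subunit for fusion with the lysosome, stood at 4.80 ± 0.24 in control and 5.17 ± 0.30 in BPS arrays (SD, n = 4), a difference of 0.38 ± 0.17 (SE) that was 0.25 after quantile normalization. It passed with the replicate block (limma adjusted p = 0.0417) and the array-series block (limma adjusted p = 0.0276), and not with the latter after quantile normalization (0.0891). Mcoln1, the lysosomal calcium channel TRPML1, stood at 5.58 ± 0.18 and 6.08 ± 0.21 (SD, n = 4) with no overlap, a difference of 0.50 ± 0.12 (SE) that was 0.31 after quantile normalization. It passed with the array-series block alone (limma adjusted p = 0.0342, and 0.106 after quantile normalization as well). Vps11, another tether subunit, differed by 0.30 with no overlap and by 0.12 after quantile normalization, and Atp6v0d1, a proton pump subunit, by 0.38 and 0.20. Of the receptors that link cargo to LC3, Optn differed by 0.26 and by 0.10 after quantile normalization, and Sqstm1 by 0.22 and 0.032. The phosphatase gene Mtmr3 differed by 0.10 and by -0.027 after it. The mitophagy kinase gene Pink1 (0.23), the phosphatase gene Mtm1 (0.11), and Tfeb and Tfec of the TFEB family (0.12 and 0.10) were below background in mean signal.

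Profiles most like that of Wipi2 were ranked by the root mean square difference between mean-centred log2 values over the 8 arrays, among 7388 named probe sets above background. The nearest were Acaa1a, a peroxisomal thiolase, at 0.103, Hprt, a purine salvage enzyme, at 0.113, Ckb, brain-type creatine kinase, at 0.117, Akirin2, a nuclear protein, at 0.127 and Ncoa5, a nuclear receptor coactivator, at 0.135. Their differences, from -0.47 in Ckb to -0.36 in Akirin2, and their lower values in letter-named arrays follow from being chosen for a profile like that of Wipi2. Of the other 9 autophagosome genes, given for reference and not ranked with the 7388, Atg16l1 was at 0.24 and Becn1 at 0.248, while Atg7 was at 0.737 and Map1lc3b at 1.01.

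**Figure D4:**
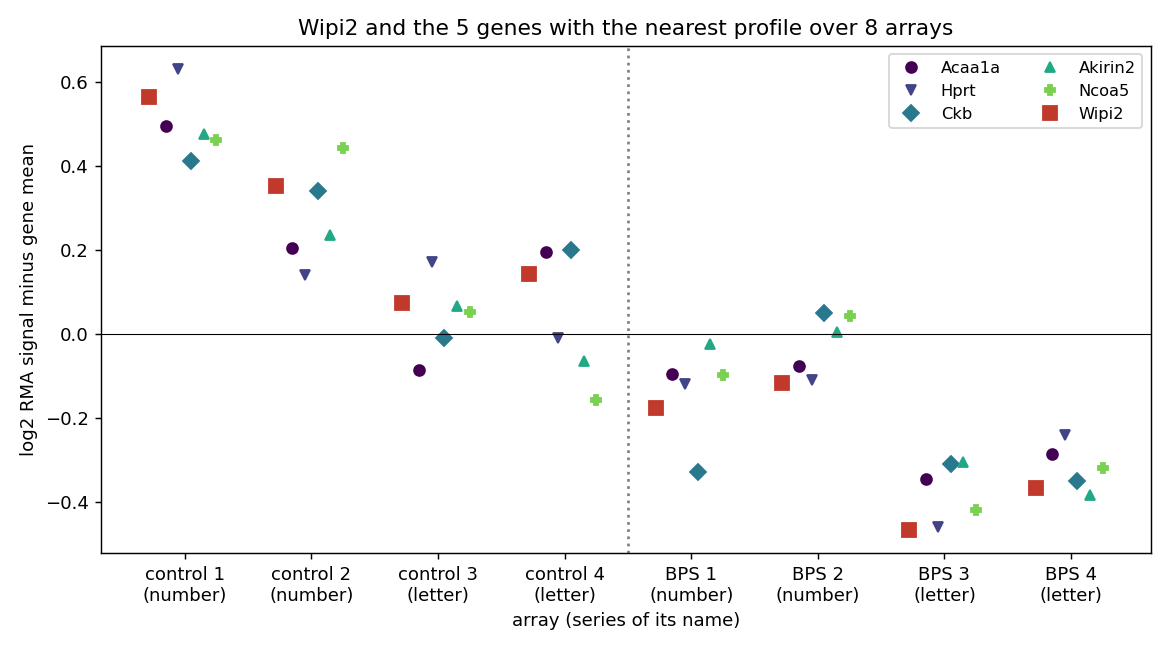
Log2 RMA signal minus the mean of each gene (vertical axis) in the 8 arrays (horizontal axis, with the series of each array's name) for Wipi2 and the 5 genes with the nearest profiles. The 5 genes follow Wipi2, which lies lower in the BPS arrays, because they were chosen for that likeness.

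The authors' deposited table gave Wipi2 an average of 4.81 in control and 4.27 in treated arrays, a 1.46-fold decrease. For Map1lc3b the authors' deposited table gave averages of 6.84 and 7.87, a 2.04-fold increase with p = 0.0322, and for Atg7 a 1.52-fold increase with p = 0.0446, by a test not stated in the sources used here. The FDR-adjusted p of the 9 genes other than Wipi2 in the authors' deposited table lay between 0.864 and 0.938.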

How the data were processed

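The log2 signals were made by the authors with RMA at gene level, per the file headers, which name NetAffx annotation release 36 and mm10. Transcriptome Analysis Console is the tool in the submitters' processing notes. The authors' deposited workbook adds group averages, a signed fold, and p-values with FDR, which were copied and not used in any test here. Array medians lay between 4.15 and 4.21, and the number of arrays limits precision.

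BPS minus control was fitted over all 34472 probe sets with limma 3.58.1 in R 4.3.3 (lmFit, eBayes, no covariate, two-sided, Benjamini-Hochberg, threshold 0.05), and the script was tested on simulated data. Letter-named minus number-named arrays were fitted with group as a block. Alternatives were centring, quantile normalization, level filters, an intensity trend, blocks and leaving out arrays. The titles give both groups replicate numbers 1 to 4. The number was used as a replicate block, although no label states that arrays of the same number are paired. Each array was taken relative to its group mean, and arrays of the same number then correlated at 0.519, 0.383, 0.173 and 0.362. Differently numbered arrays of the same array series correlated at 0.305 to 0.493, so the correlations do not single out pairing by number. The replicate block also takes up the array series, so fits with these blocks are not separate checks.

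The 10 genes and all lists were chosen with earlier results of these data known. Named genes were the 10, the 2 genes of each list with the smallest p, any past the threshold and the 5 nearest profiles. Gabarapl2, Map1lc3a, Inha and Nr5a2 were named after their values were seen. A gene of the lists is not reported here. Tables and plots used Python 3.11.15, pandas 2.3.3 and matplotlib 3.10.9.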

Additional observations from a re-analysis of the deposited data

Results flagged for a closer look

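In a few genes 1 array stood apart from the other 3 of its group, by a gap to the nearest that took up more of the group's range than Dixon's test allows. This occurred in 5 of 66 groups tested, and chance gives about 1 in 20. Control replicate 1 was the array in 4 of the 5. For Atg16l1 it stood at 7.02 against 6.50 to 6.54, and for Atg5 at 8.90 against 9.05 to 9.08. For Atg13 it stood at 4.49 against 4.67 to 4.70, and for Nrbf2 at 5.46 against 5.65 to 5.66. For Tfec, below background, BPS replicate 4 stood at 4.30 against 4.22 to 4.23.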

How the results depend on the processing

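Of the 9 genes other than Wipi2, 0 passed under centring, quantile normalization, both level filters, the intensity trend and each omission of 1 array. With the replicate block 2 passed, with the array-series block 2, and with the latter after quantile normalization 1. Leaving out single arrays with the array-series block, chosen after seeing the data, removed calls as given above. Wipi2 was picked on this contrast and is left out of these counts. Of the 68 other pathway genes 1 passed with the replicate block, 2 with the array-series block and 0 under the other settings. Over all probe sets the count of 3 became 1 after centring, 0 after quantile normalization or with the intensity trend, 685 with the replicate block, 1195 with the array-series block and 611 with that block after quantile normalization, and lay between 0 and 3 in fits without single arrays. The count of 1899 between the series of array names was 979 after quantile normalization and lay between 714 and 1716 in fits without single arrays, and the count of 4 among the 10 genes was 2 and ran from 0 to 2. The causes were not tested. The Wipi2 difference ran from -0.64 to -0.47 over the settings, which describes the value it was picked on and is no separate support. Among the 32 single-gene values 2 changed sign, Atg2a (-0.025) and Mtmr3 (-0.027) after quantile normalization with or without the array-series block. The number of arrays and signals near background, as for Wipi2, Becn1 and Wipi1, limit what could be detected.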

Other observations

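For Map1lc3b the authors' deposited table gave a control average of 6.84, while the arithmetic mean of the 4 deposited control signals was 6.62. For Atg16l1 it gave 6.52 against a mean of 6.65. In both genes 1 control array lay far from the other 3 or from the mean, at 5.57 and 7.02. The sources used here do not say how the averages were made.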
